A study of Homo sapiens with 6 samples.

Results

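The genes described here are CENPA, HJURP, CENPH, CENPI, CENPK, CENPM, CENPL, CENPN, CENPU and CENPW, 10 of the 14456 genes in the deposited table, chosen by symbol, and all 10 had a row. Polyadenylated RNA was sequenced from C4-2 cells, an androgen-independent prostate cancer line derived from LNCaP and labelled as epithelial-like, grown in RPMI with 10% fetal bovine serum. The cells received 100 nM IPI-9119, an inhibitor of fatty acid synthase, or 0.1% DMSO, both for 6 days, with 3 libraries in each group. Whether the 3 libraries of a group came from cultures grown apart is not in the labels, and the spread that the p-values are set against may therefore be technical.

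Every human chromosome carries a centromere that is marked not by its DNA sequence but by CENP-A, a histone H3 variant that replaces H3 in part of the nucleosomes there. The chaperone HJURP deposits new CENP-A after mitosis. On CENP-A chromatin sits the constitutive centromere-associated network, the inner kinetochore, built from CENP-C and the groups CENP-L/N, CENP-H/I/K/M, CENP-O/P/Q/U/R and CENP-T/W/S/X. This network carries the outer kinetochore, which binds spindle microtubules. Most of its genes are known to be transcribed periodically in dividing cells, from promoters bound by the E2F, DREAM and FOXM1 machinery.

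The promoters of CENPA, HJURP, CENPK and CENPN are shown, chosen with the values of the members known. CENPA and HJURP had the largest changes below, CENPK also rose, and CENPN was the only member that went the other way. The promoters of CENPI, CENPU and CENPW were also at hand and are not printed. Each line gives the 180 bases before the start that RefSeq annotates on GRCh38.p14, from 5′ to 3′ on the gene's strand. Capitals mark CCAAT (the NF-Y box), TTTGAA and TTTAAA (letters of the cell cycle homology region) and TTGGCGC and TTCCCGC (letters of E2F sites), on either strand.
CENPA (chr2:26785876-26786055, plus strand): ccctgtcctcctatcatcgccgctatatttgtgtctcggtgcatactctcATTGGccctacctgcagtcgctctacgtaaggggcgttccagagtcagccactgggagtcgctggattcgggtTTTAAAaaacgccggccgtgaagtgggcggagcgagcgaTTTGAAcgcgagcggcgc
HJURP (chr2:233854536-233854715, minus strand): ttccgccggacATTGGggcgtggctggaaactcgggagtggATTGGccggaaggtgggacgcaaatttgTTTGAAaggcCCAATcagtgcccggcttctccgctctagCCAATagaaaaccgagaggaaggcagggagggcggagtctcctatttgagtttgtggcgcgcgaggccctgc
CENPK (chr5:65563169-65563348, minus strand): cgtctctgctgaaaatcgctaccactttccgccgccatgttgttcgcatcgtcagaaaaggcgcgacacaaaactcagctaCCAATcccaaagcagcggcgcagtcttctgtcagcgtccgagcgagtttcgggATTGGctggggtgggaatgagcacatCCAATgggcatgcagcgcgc
CENPN (chr16:81007034-81007213, plus strand): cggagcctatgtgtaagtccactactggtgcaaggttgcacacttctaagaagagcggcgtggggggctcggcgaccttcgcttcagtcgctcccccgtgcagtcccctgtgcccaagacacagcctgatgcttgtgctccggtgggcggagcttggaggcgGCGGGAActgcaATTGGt

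RefSeq promoters were at hand for 7 of the 10 members, the others being CENPH, CENPL and CENPM. In the whole window of 300 bases, from 250 before the start to 50 after it, CCAAT stood in 6 of these 7 promoters, against 35.7% of 27305 promoters of all genes. TTTGAA stood in 3 of 7, those of CENPA, HJURP and CENPN, against 15.4% of all promoters. In the CENPA promoter it began 18 bases before the start, and in the CENPN promoter 4 bases after it, outside the stretch printed. TTTAAA, which reads the same on both strands, stood in the CENPA promoter alone of the 7, against 12.3% of all promoters. TTCCCGC stood in the promoters of CENPA and CENPN (6.6% of all promoters) and TTGGCGC in that of HJURP (3.1%). The TTCCCGC match in CENPA and the match in HJURP lie outside the stretches printed. The CENPI promoter held none of these letters. The RefSeq starts of several members, those of CENPA, CENPI and CENPN among them, lie inside the gene as GENCODE 29 annotates it. A match is a description of the letters and not a measured binding site.

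With IPI-9119, 9 of the 10 genes rose and CENPN fell. CENPA rose the most, 8.17-fold, followed by HJURP (6.39-fold) and CENPW (6.07-fold), while CENPL rose the least (2.07-fold). The background was wide: of 14437 genes tested with limma, 31.3% were called higher and 31.4% lower (adjusted p below 0.05). The groups did not overlap for any member, which held with IPI-9119 above DMSO for 34% of all genes and below it for 33.9%. The size of the changes can be read against that background. A call with a log2 fold change of at least 1 was reached by 9 members, against 7.92% of all genes, and a call with at least 2 by 6 members, against 2.43%. The median log2 fold change was 2.09 over the 10 members and 0.0017 over all tested genes. Because the members were chosen with earlier results of these data known, their excess over these shares and this median is a description only. Linear folds are ratios of the group means, and log2 fold changes were taken on log2(normalised count + 1), so for the rarer members the log2 values come out somewhat too small.

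**Figure D1:**
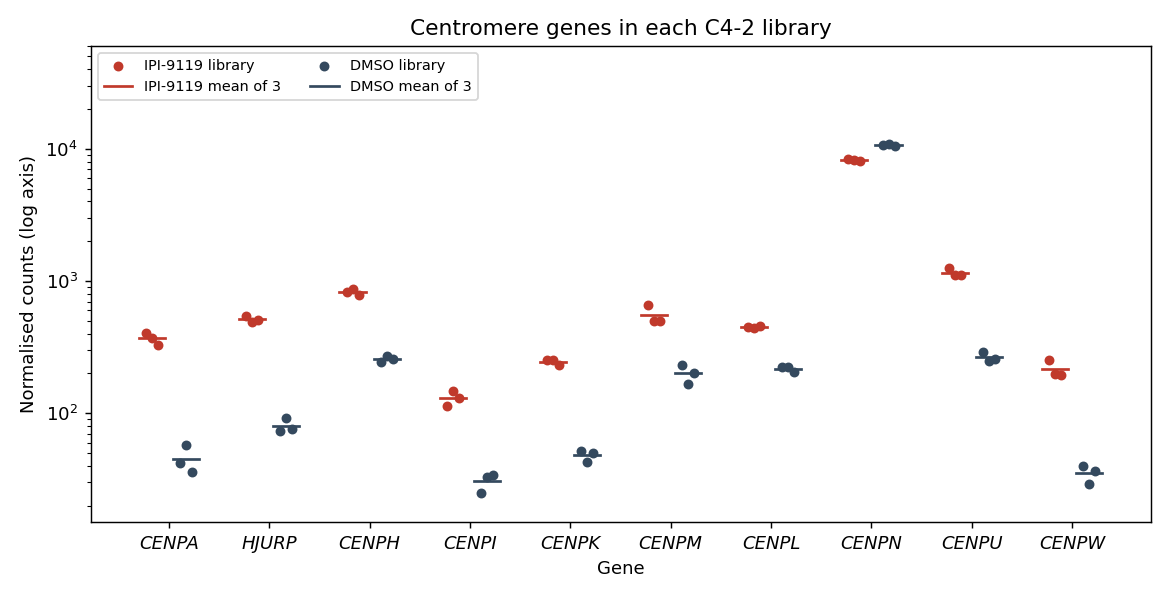
Normalised counts (log axis) of the 10 genes in each of the 3 IPI-9119 libraries (red) and the 3 DMSO libraries (blue-grey), with a line at the mean of each group. The groups are apart for every gene, with IPI-9119 above DMSO for 9 genes and below it for CENPN.

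CENPA (ENSG00000115163, GRCh38 chromosome 2, 26764289 to 26801067, plus strand) encodes the centromeric histone itself. It had 405.9, 373.0 and 327.7 normalised counts in the IPI-9119 libraries, against 42.01, 57.56 and 35.82 in the DMSO libraries. Even the lowest treated library lay far above the highest control, and the log2 fold change was 3.03 (SE 0.171, limma, adjusted p 2.7e-09). It rests on 39 to 61 reads per library with DMSO. HJURP (ENSG00000123485, chromosome 2, 233833416 to 233854566, minus strand), the chaperone of CENP-A, had 541.9, 490.8 and 508.1 normalised counts with IPI-9119 and 73.29, 91.53 and 76.23 with DMSO. Its groups were likewise apart, with a log2 fold change of 2.67 (SE 0.118, limma, adjusted p 2.4e-10). Both partners of CENP-A deposition thus rose, and among the 14437 tested genes they took the ranks 86 and 147 from the highest log2 fold change.

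The histone and its chaperone did not rise by the same amount in these libraries. The ratio of HJURP to CENPA, each per length of merged exons, was 0.693, 0.683 and 0.805 in the IPI-9119 libraries and 0.905, 0.825 and 1.10 in the DMSO libraries. The ratios of the groups did not overlap and were lower with IPI-9119, by 0.37 on the log2 scale. An exact two-sided permutation test gave p = 0.1, the smallest that 3 libraries against 3 allow, so this difference could not have passed the threshold (adjusted p 0.133 over 4 pairs of members compared).

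The 4 genes of the CENP-H/I/K/M group rose together. CENPH (ENSG00000153044, chromosome 5, 69189548 to 69210357, plus strand) had 827.6, 865.0 and 789.7 normalised counts with IPI-9119 and 242.2, 270.8 and 255.3 with DMSO. CENPK (ENSG00000123219, chromosome 5, 65517766 to 65563171, minus strand), which pairs with CENP-H, had 252.0, 254.1 and 229.9 with IPI-9119 and 51.84, 42.46 and 50.51 with DMSO. The libraries of a group lay close together for both genes, with log2 fold changes of 1.69 (SE 0.082) for CENPH and 2.33 (SE 0.144) for CENPK. CENPI (ENSG00000102384, chromosome X, 101098218 to 101163681, plus strand), a large helical-repeat subunit, was the rarest member. It had 113.9, 148.3 and 129.8 normalised counts with IPI-9119 and 25.03, 33.02 and 33.98 with DMSO, on 28 to 37 reads per DMSO library. CENPM (ENSG00000100162, chromosome 22, 41938721 to 41947164, minus strand), which folds like a small GTPase but binds no nucleotide, had its highest value of each group in replicate 1. Its values were 657.8, 496.3 and 499.3 with IPI-9119 and 233.3, 165.1 and 202.1 with DMSO. The log2 fold changes were 2.06 (SE 0.192) for CENPI and 1.46 (SE 0.138) for CENPM, and the groups overlapped for neither. The highest adjusted p of the 4 genes was 8.9e-07 (limma).

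Within this group CENPH and CENPK are a pair of near neighbours in the complex, and their ratio was lower with IPI-9119 in these libraries. The ratio of CENPH to CENPK per length was 6.31, 6.54 and 6.60 in the IPI-9119 libraries and 8.98, 12.3 and 9.71 in the DMSO libraries. All treated libraries lay below all controls. The exact permutation p was 0.1, the smallest possible (adjusted 0.133 over 4 pairs), so this difference could not have passed the threshold. For CENPM to CENPI the ratios were 14.0, 8.13 and 9.35 with IPI-9119 and 22.7, 12.2 and 14.5 with DMSO. These overlapped (exact permutation p = 0.2). These pairs were chosen with the values of the members known.

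CENPL and CENPN, whose proteins form a heterodimer that reads the CENP-A nucleosome through CENP-N, went in opposite directions. CENPL (ENSG00000120334, chromosome 1, 173799550 to 173824720, minus strand) had 451.2, 442.8 and 454.2 normalised counts with IPI-9119 and 224.3, 223.6 and 204.8 with DMSO. That is the smallest of the 9 rises but a tight one, with a log2 fold change of 1.04 (SE 0.090, limma, adjusted p 2.2e-07). CENPN (ENSG00000166451, chromosome 16, 81006498 to 81033114, plus strand) had 8434.9, 8253.6 and 8067.0 normalised counts with IPI-9119 and 10726.6, 10817.9 and 10454.6 with DMSO. All treated libraries lay below all controls, and the log2 fold change was -0.37 (SE 0.043, limma, adjusted p 3.7e-06). The ratio of CENPN to CENPL per length was 25.7, 25.7 and 24.5 with IPI-9119 and 65.9, 66.6 and 70.3 with DMSO. An exact permutation test gave p = 0.1, the smallest possible (adjusted 0.133 over 4 pairs), so this difference could not have passed the threshold. The ratio restates the opposite changes of CENPN and CENPL, and this pair too was chosen with the values of the members known.

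CENPN also stood apart by its level. With DMSO its mean exceeded that of 98.0% of the tested genes, while the other 9 members lay above 14.8% to 43.2% of them. It held 64.9% ± 0.831 of the summed normalised counts of the 10 members in the IPI-9119 libraries and 90.0% ± 0.279 in the DMSO libraries (SD, n = 3 each). The sum of all 10 was 12713 ± 439.5 with IPI-9119 and 11846 ± 206 with DMSO, so it hides the rise of the others. Without CENPN the sum was 4462 ± 259 with IPI-9119 and 1179.9 ± 38.8 with DMSO, 3.78-fold higher. CENPN is known as an androgen-responsive gene in prostate cancer cells. The androgen-induced KLK3, which encodes prostate-specific antigen, was also lower with IPI-9119 (log2 fold change -0.95), and its relation to CENPN was not tested. Exons of CENPN overlap those of CMC2 on the opposite strand over 12.8% of the exonic length of CENPN, and no source used here gives the strand setting of the counting, so reads of the shared bases cannot be told apart.

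CENPU and CENPW complete the list. CENPU (ENSG00000151725, chromosome 4, 184694618 to 184734133, minus strand), a subunit of the CENP-O/P/Q/U/R group that binds the kinase PLK1, had 1249.3, 1116.9 and 1115.2 normalised counts with IPI-9119 and 292.3, 247.2 and 259.0 with DMSO. Its log2 fold change was 2.12 (SE 0.086, limma, adjusted p 9.7e-11), the smallest adjusted p of the 10. CENPW (ENSG00000203760, chromosome 6, 126340174 to 126348875, plus strand), a small histone-fold protein that pairs with CENP-T, had 250.9, 198.5 and 194.7 with IPI-9119 and 40.22, 29.25 and 36.74 with DMSO. The groups were far apart here too (log2 fold change 2.57, SE 0.175, limma, adjusted p 1.9e-08). Of CENPU, 11.7% of the exonic length is shared with PRIMPOL on the opposite strand, and of CENPA 7.0% with SLC35F6 on the same strand. PRIMPOL and SLC35F6 had log2 fold changes of 0.41 and 0.27. What reads of the shared bases add to the values of CENPU and CENPA was not tested.

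Per kb of exonic length, the order of the members differed between the groups. With IPI-9119 CENPN led (2313 ± 51.6 normalised counts per kb), followed by CENPU (393 ± 26.1), CENPH (369 ± 16.8), CENPM (310.0 ± 52.0) and CENPW (270.1 ± 39.5). Below these came CENPA (186 ± 19.8), HJURP (134 ± 6.80), CENPL (91.5 ± 1.20), CENPK (56.9 ± 3.12) and CENPI (30.2 ± 3.99; SD, n = 3 for each). Libraries of neighbours in that order overlapped from CENPU down to CENPW, and nowhere else. With DMSO CENPN again led (2989.5 ± 53.0), then CENPH (114 ± 6.38), CENPM (113 ± 19.2), CENPU (90.1 ± 7.91), CENPW (44.5 ± 7.05) and CENPL (44.3 ± 2.25). CENPA (22.8 ± 5.65), HJURP (21.0 ± 2.56), CENPK (11.2 ± 1.18) and CENPI (7.10 ± 1.14) were lowest. Here the neighbours CENPH and CENPM, CENPM and CENPU, CENPW and CENPL, and CENPA and HJURP overlapped. Merged exons can exceed any single transcript, and with the longest transcript in their place 4 members changed place in the order with IPI-9119 and 6 with DMSO.

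**Figure D2:**
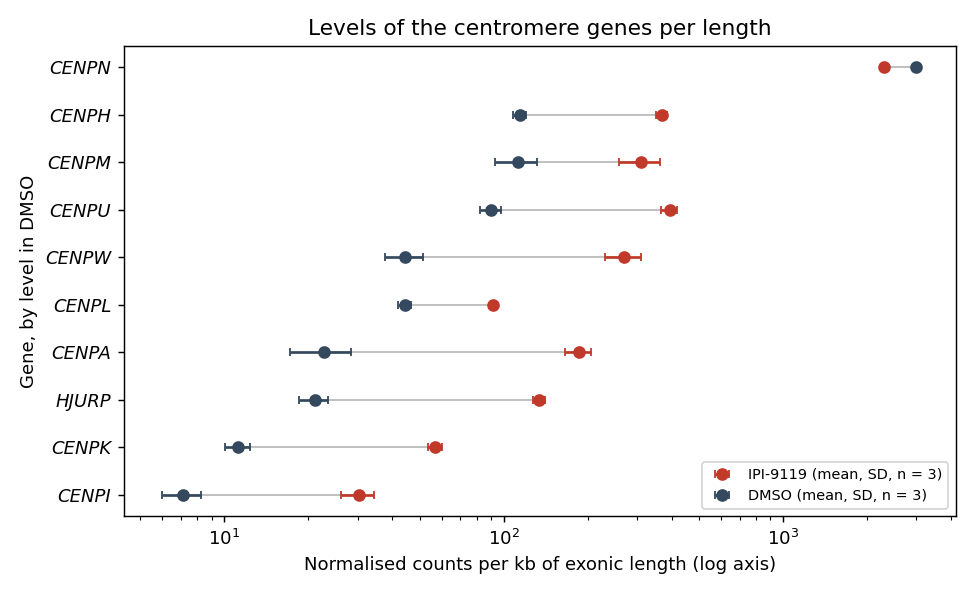
Mean normalised counts per kb of exonic length (log axis) of the 10 genes with IPI-9119 (red) and DMSO (blue-grey), bars giving the SD over 3 libraries, ordered by the DMSO level. CENPN lies at 2313 with IPI-9119 and 2989.5 with DMSO, while the other 9 lie to the right with IPI-9119.

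The network has 8 further subunits besides the members. Among these 8, limma called 5 higher and 0 lower, against 31.3% higher and 31.4% lower of all tested genes. The median log2 fold change of the 8 was 0.58. At an unadjusted p under 0.05, 1 of them was lower (CENPT), and edgeR and DESeq2 called 0 lower. CENPO, a partner of CENP-U, had 304.7, 284.7 and 316.7 normalised counts with IPI-9119 and 106.4, 124.6 and 122.2 with DMSO. It rose the most of the 8 (log2 fold change 1.35), followed by CENPP (0.85), CENPQ (0.82), CENPS (0.68) and ITGB3BP, which encodes CENP-R (0.48). The scaffold subunit CENPC had 83.28, 73.08 and 74.79 with IPI-9119 and 72.40, 85.86 and 79.90 with DMSO, overlapping groups (log2 fold change -0.04, adjusted p 0.837). CENPT, the partner of CENP-W, had 247.7, 229.1 and 221.1 with IPI-9119 and 289.6, 285.0 and 249.8 with DMSO. The groups did not overlap, but the gene did not pass (log2 fold change -0.24, adjusted p 0.0616), and its sign turned after the correction for length and GC content described below (0.0755). It passed without IPI-9119 replicate 1 (-0.28, adjusted p 0.0347) or DMSO replicate 3 (-0.30, adjusted p 0.0388). CENPX was at 0.006 (adjusted p 0.940). Within the CENP-T/W/S/X group, then, values ranged from -0.24 for CENPT to 2.57 for CENPW. The difference between this list and the 10 members was not tested.

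Of 4 CENP genes outside the network 1 was called higher, 1 lower and 2 did not pass (median -0.16), where 31.3% of all tested genes were higher and 31.4% lower. CENPE, a long kinesin that moves chromosomes on the spindle, had 17.92, 20.72 and 18.70 normalised counts with IPI-9119 and 37.54, 54.73 and 25.72 with DMSO. It fell (log2 fold change -0.94, adjusted p 0.0127), but leaving out DMSO replicate 2, its highest library, put it past the threshold no longer (-0.68, adjusted p 0.0899). CENPF, a large protein of the outer kinetochore, was at -0.44 (adjusted p 0.0562), and it was past the threshold without IPI-9119 replicate 1 (-0.55, adjusted p 0.0285) or DMSO replicate 3 (-0.55, adjusted p 0.0390). CENPJ, which despite its name builds centrioles, was called higher (0.52, adjusted p 0.0447), and lost the call without IPI-9119 replicate 2 (0.49, adjusted p 0.110) or 3 (0.33, 0.208) or DMSO replicate 1 (0.39, 0.161) or 3 (0.55, 0.0784). CENPB, which binds a centromeric DNA box, was at 0.12 (adjusted p 0.0984). After the correction for length and GC content the call passed to CENPB (0.395, limma, adjusted p 8.68e-06) and CENPJ lost it (0.356, adjusted p 0.127), so that the count of 1 higher stands for different genes.

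**Figure D3:**
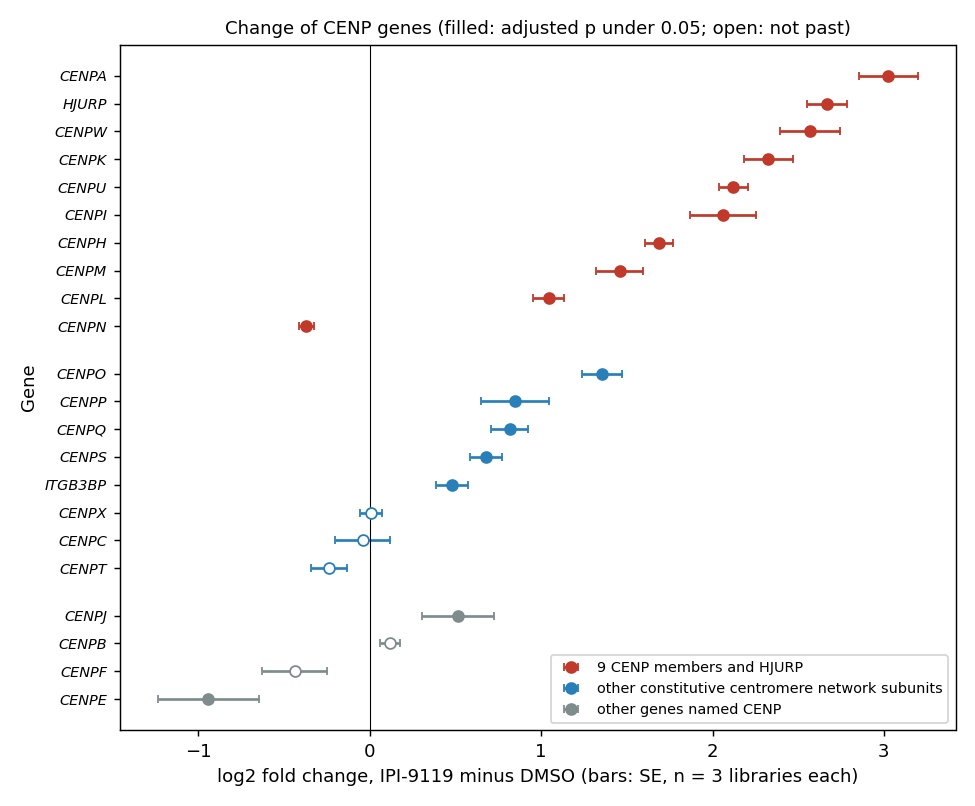
Log2 fold change (IPI-9119 minus DMSO, bars giving the SE, 3 libraries each) of the 10 members (red), the 8 other subunits of the constitutive network (blue) and 4 other CENP genes (grey), filled where the adjusted p was under 0.05. The members run from 3.03 for CENPA to -0.37 for CENPN, and the other subunits from 1.35 for CENPO to -0.24 for CENPT.

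Of 18 genes of CENP-A loading and of histone chaperones 9 rose, 6 fell and 3 did not pass (median 0.11), against 31.3% higher and 31.4% lower of all tested genes. After the correction for length and GC content 8 were called higher and 7 lower. The kinase gene PLK1, which licenses loading, rose by 2.77 on the log2 scale. OIP5, a subunit of the Mis18 complex that recruits HJURP, rose by 2.60, and ASF1B, a chaperone of newly made histone H3, by 2.35. MIS18A, a partner of OIP5 in that complex, rose by 0.50 (adjusted p 0.00166), and is named here after its value was seen. ATRX, which with DAXX loads histone H3.3, fell the most (-1.34). DAXX itself was called higher (0.31, limma, adjusted p 0.00063), and is also named after its value was seen.

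Most genes of the outer kinetochore and the inner centromere also rose. Of the 10 genes of the KNL1, MIS12 and NDC80 complexes 7 rose, 0 fell and 3 did not pass (median 1.68). This stands against 31.3% higher and 31.4% lower of all tested genes. For these 10, edgeR and DESeq2 also called 0 lower, as did an unadjusted p under 0.05. The correction for length and GC content called 2 lower. All genes of the NDC80 complex, which grips the microtubule, were among the 7, with SPC25 at 3.08, SPC24 at 2.78 and NUF2 at 2.52. Of 8 genes of the chromosomal passenger complex and its neighbours 7 rose and 1 did not pass (median 2.25), against the same shares. BIRC5 (3.42), BUB1 (2.71) and AURKB (2.61) led these.

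Cell cycle markers moved with the members, and their part in the members' changes was not tested. Over all tested genes 31.3% were called higher and 31.4% lower. Of 15 genes of G2 and M phase 14 rose and 1 fell (median 2.845), with CCNA2 (3.73), HMMR (3.32) and KIF20A (3.04) highest. MKI67 was lower (-1.32), with 20.03, 18.54 and 20.90 normalised counts with IPI-9119 and 38.43, 86.81 and 39.49 with DMSO. The summed level of the 15 ran between 17541 and 18323.5 normalised counts in the IPI-9119 libraries and between 2834.5 and 3080.1 in the DMSO libraries. All 14 S phase genes rose (median 1.33), led by CDC45 (2.81), TYMS (2.79) and RRM2 (2.70). With the correction for length and GC content 13 of them were called higher. Of 19 regulators of cell cycle promoters 12 rose (10 with the correction), 1 fell and 6 did not pass, with a median of 0.24. Those that rose the most were MYBL2 (2.26), E2F1 (2.06) and E2F8 (1.89), while RB1 fell (-0.36). In bulk RNA a larger share of cycling cells and more RNA per cell cannot be told apart.

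The members are not long genes, and length moved with the result across the table. Their exonic lengths ran from 795 nt (CENPW) to 4914 nt (CENPL), against a median of 4616 nt over all tested genes. Genes under 1000 nt, CENPW among them, had a median log2 fold change of 0.074, those of 1000 to 2000 nt one of 0.15, and those of at least 12000 nt one of -0.26. CENPE (9444 nt), CENPF (11690 nt) and MKI67 (12807 nt) were long, while KNL1 rose by 1.20 at 10250 nt. After a correction for exonic length and GC content, all 10 members kept their call, with 9 log2 fold changes between 0.85 (CENPL) and 2.86 (CENPA), and CENPN was at -0.54 (limma, adjusted p 8.2e-09). After that correction 30.7% of all genes were called higher and 34.1% lower. It left CENPE at -1.02 (limma, adjusted p 0.00553), MKI67 at -0.94 (0.00865), CENPF at -0.40 (0.0839) and KNL1 at 1.16 (0.00011). The part of length in the changes of these genes was not tested.

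**Figure D4:**
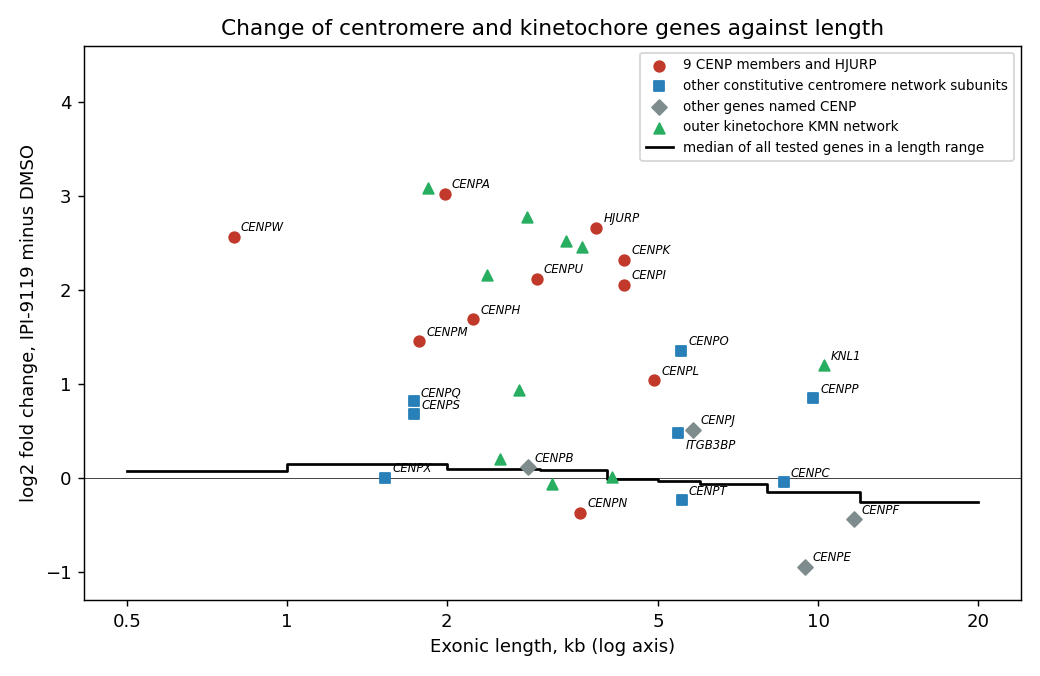
Log2 fold change (IPI-9119 minus DMSO) against exonic length in kb (log axis) for the 10 members (red circles), the other network subunits (blue squares), other CENP genes (grey diamonds) and the outer kinetochore genes (green triangles). The black line is the median of all tested genes in each length range, at 0.074 under 1000 nt, 0.15 at 1000 to 2000 nt and -0.26 at 12000 nt and above, and 9 of the 10 members lie far above it.

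The defining markers of the labelled line were present. All 8 luminal prostate markers had a row, with a summed level of 127947 to 133153 normalised counts with IPI-9119 and 209044 to 217356 with DMSO. Of them 6 were lower (KLK3 among these) and 1 higher, against 31.4% lower and 31.3% higher of all tested genes. Of 14 markers of basal, stromal, leukocyte and endothelial cells 4 had a row, COL1A1, COL1A2, ACTA2 and VWF. These summed to 157.1 to 183.2 with IPI-9119 and 124.6 to 154.3 with DMSO, and ACTA2 was called higher. It had 18, 14 and 13 reads with IPI-9119 and 4, 2 and 11 with DMSO. Its mean was 16.2 with IPI-9119 and 5.19 with DMSO, so it passed the minimum mean of 10 only through the IPI-9119 libraries. After the correction for length and GC content COL1A1 (1.49, limma, adjusted p 0.00043) and VWF (0.89, adjusted p 0.00114) were also called higher, 3 of these 4. That compares with 30.7% of all genes after the correction. Without it COL1A1 was at 0.57 (limma, adjusted p 0.122) and VWF at 0.098 (adjusted p 0.709), and the groups overlapped for both. The recovered reads per library ran from 19090749 to 20422882 with IPI-9119 and from 21952620 to 23448035 with DMSO.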

How the data were processed

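The deposited values are a signal per gene, which the authors made by dividing read counts by a size factor per library. The submitters' processing notes name GRCh38, STAR 2.5.2b, DESeq2, Trimmomatic 0.36, and featureCounts with Subread 1.5.2, with no role or order. Strand setting and annotation release: not given in the sources used here. All values (100% within 0.01 read) were whole multiples of what 1 read was worth in their library, so whole reads were recovered, 19090749 to 23448035 per library. The lowest total of any gene was 61 reads, so rarer genes are not analysed here. Depth covers counting error only.

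Groups followed the labels. The main test was limma 3.58.1 (R 4.3.3, trended and robust moderation) on log2(value + 1) for the 14437 genes with a mean of at least 10, which left out 19. P-values were adjusted by Benjamini-Hochberg over all tested genes at a threshold of 0.05. Alternatives were edgeR 4.0.16 (quasi-likelihood) and DESeq2 1.42.0 on recovered reads, other pseudocounts, filters and scalings, a replicate block, a spline correction (4 degrees of freedom) for exonic length and GC content, and leaving out each library. The script was tested on simulated data. Gene positions, exonic lengths and overlaps came from GENCODE 29 (14409 of 14456 identifiers matched), and promoters from RefSeq.

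The members and lists were chosen with earlier results of these data known. Named genes are all members, all other network subunits and CENP genes, the 3 called genes with the largest change in each other list with the largest in the opposite direction, and the 5 genes with the nearest profile. The labels give no batch, so a batch and the treatment cannot be told apart.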

Additional observations from a re-analysis of the deposited data

How the results depend on the processing

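All 10 members kept their direction and their side of the threshold under all 17 alternatives, with a highest adjusted p of 0.00192 (CENPN). The median log2 fold change of the members was 1.97 with a pseudocount of 8 and 1.84 with the correction for length and GC content. CENPX, near 0, was at -0.0002 with TMM scaling and -0.0908 with that correction, and ran from -0.0595 to 0.0586 with 1 library left out. CENPC ran from -0.1054 to 0.0161 with 1 library left out, and CENPT was at 0.0755 with the correction. The cause of these changes was not tested.

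Counts of genes called lower moved as follows. Leaving out 1 library gave 0 to 1 for the other network subunits, 0 to 2 for the other CENP genes and 1 to 2 for the regulators of cell cycle promoters, and 0 to 1 other CENP genes called higher. The other CENP genes had 0 lower with a mean of at least 50, where CENPE is no longer tested, and 2 lower and 0 higher without trended and robust moderation. With a mean of at least 50 the G2 and M phase list had 0 lower, since MKI67 is then not tested. The correction gave 2 lower in the outer kinetochore list and 2 among the regulators, where quantile scaling also gave 2. The correction also left 13 of 14 S phase genes and 10 of 19 regulators called higher. Levels per kb with the longest transcript were 1.06 to 2.49 times those with merged exons.

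The replicate numbers were not taken as pairs, since the correlations of same-numbered libraries were 0.43, 0.26 and -0.03, and IPI-9119 replicate 3 correlated best with DMSO replicate 2 (0.34). With the replicate block 9596 genes were called, against 9061 without it, with 1 other network subunit (CENPT) and 3 regulators lower.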

Other observations

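The genes whose profile over the 6 libraries lay nearest to the mean profile of the 10 members were SDC4, SQLE, EBP, EGLN3 and BTN2A2, with Euclidean distances of 0.066 to 0.143 on the log2 scale among 10348 candidates. SQLE and EBP encode enzymes of cholesterol synthesis. SQLE had a mean of 3814 normalised counts with IPI-9119 and 1029.9 with DMSO. With CENPN left out of the mean profile the nearest were FDPS (0.104), MAN1A1, STARD4, ZWINT and ACSS2 (0.203), in that order. Only ZWINT, at rank 4, encodes a kinetochore protein. With 3 libraries in each of 2 groups, likeness here is mostly likeness in the size of the change.

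The neighbours of CENPN, chosen after their values were seen, did not share a direction. CMC2, which overlaps CENPN on the opposite strand, averaged 2447 ± 129 normalised counts with IPI-9119 and 1457.6 ± 113 with DMSO (SD, n = 3 each), a log2 fold change of 0.75. ATMIN, downstream on the same strand, averaged 3976 ± 62.0 with IPI-9119 and 5768 ± 93.9 with DMSO, a log2 fold change of -0.54.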
